A study of Arabidopsis thaliana with 6 samples.

Results

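Chloroplast-encoded transcripts are the mRNAs made inside the plastid from its own circular genome. They were taken as every row of the 6 count tables whose locus identifier begins with ATCG, apart from accD. This left 70 transcripts of the 24509 counted, and 69 of these 70 were tested among 18241 transcripts. Some plastid genes, among them psbD, atpE and rpl23, were not in these 70, so the role groups and read shares below do not cover the whole plastid genome. The transcript not tested was ycf1.1, the copy of ycf1 that is cut short at the edge of the inverted repeat. It had 1, 5 and 1 reads in the libraries labelled atwri1-1 and 1, 4 and 4 reads in WT libraries. Of its 31-base words 99.8% occurred more than once in the plastid genome, and reads with more than 1 best place were dropped, so its level cannot be read from these counts. The libraries came from whole Arabidopsis thaliana embryos of accession Col-0, dissected 8 days after pollination and pooled at 25 to 30 embryos per replicate. There were 3 biological replicates from plants homozygous for atwri1-1 (wrinkled1-1) and 3 from wild type (WT). The experiment asked which embryo mRNAs depend on WRINKLED1 (WRI1), an AP2-type transcription factor known for raising glycolysis and fatty acid synthesis in seeds, and a further question here was whether WT replicate 1 resembled WT replicates 2 and 3.

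In green embryos such as those of Arabidopsis, plastids carry out photosynthesis and also make the fatty acids of the seed oil. Chloroplast genes are read by a bacterial-type RNA polymerase, whose core subunits are encoded in the plastid (rpoA, rpoB, rpoC1, rpoC2) and whose sigma factors are encoded in the nucleus, and by phage-type polymerases encoded in the nucleus. Photosynthesis genes depend mainly on the plastid-encoded enzyme, while rpoB and its neighbours are read by the nuclear-encoded one. Most chloroplast genes are transcribed together with their neighbours and the long precursors are cut into shorter mRNAs, whose levels depend strongly on RNA-binding proteins that protect their ends.

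The WRI1 mRNA itself went against a simple loss of function. It had 1256, 1100 and 1042 CPM (reads per 1000000 transcript reads, with library sizes scaled by TMM) in the libraries labelled atwri1-1, against 186, 148 and 166 CPM in WT libraries (log2 fold change 2.76, adjusted p = 0.000226 by edgeR's quasi-likelihood test). The allele came from chemical mutagenesis, so the mRNA level does not by itself show the genotype, and every direction given here follows the labels. Reads on named transcripts numbered 8510887 to 18933870 per library, and the row that names no transcript held 86.6% of the table in atwri1-1 replicate 1, against 39.6% to 45.0% in the other 5. WT replicate 1 stood apart from the other WT libraries over the transcripts tested, with the chloroplast members included. The chi-square of its counts per degree of freedom was 94.3 against WT replicate 2 and 83.3 against WT replicate 3, and that between WT replicates 2 and 3 was 7.05. The summed level of the 6 tested of 7 endosperm marker genes was 296, 94.4 and 195 CPM in the libraries labelled atwri1-1, against 461, 225 and 255 CPM in WT libraries, and its members went different ways. EPR1, a cell wall protein of the endosperm, was at 344 CPM in WT replicate 1, against 41.0 and 80.7 CPM in WT replicates 2 and 3. ALE1 was also highest there among WT libraries, at 43.0 CPM against 20.4 and 36.7 CPM. By contrast, SUC5, AGL62, ZOU and FIS2 were lower in WT replicate 1 than the mean of WT replicates 2 and 3. In the libraries labelled atwri1-1 the sucrose transporter gene SUC5 fell (log2 fold change -2.24, adjusted p = 0.00886) and the early endosperm regulator AGL62, with 1.55, 1.43 and 2.14 CPM against 0.393, 0.265 and 0.690 CPM in WT libraries, rose (1.89, adjusted p = 0.0475, and 0.0560 without WT replicate 1 or 0.0544 with the replicate block). Summed seed coat markers (6 tested of 7 genes) ran from 321 to 468 CPM and from 342 to 386 CPM in the same order of groups, and embryo markers (6 genes) from 4126 to 7161 CPM and from 3594 to 5495 CPM. Within the embryo list OLE2, an oil body protein, passed at 0.75 (adjusted p = 0.0451), short of the fold minimum, while the seed storage protein CRC had 0.823, 11.9 and 135 CPM in the libraries labelled atwri1-1, against 115, 120 and 299 CPM in WT libraries (adjusted p = 0.419). The embryo regulator LEC1 had 84.3, 76.9 and 57.2 CPM against 59.2, 35.1 and 31.1 CPM (0.80, adjusted p = 0.118). It was called higher without WT replicate 1 (1.14, adjusted p = 0.00342), and with the replicate block its adjusted p was 0.0385. With all libraries 3 of the 6 embryo markers had negative log2 fold changes. The listed markers that were not tested, MEA (endosperm) and PER36 (seed coat), were below 1 CPM in all 6 libraries. Some other members of these lists were well above that. ALE1 (endosperm) had 20.4 to 66.3 CPM and ARA12 (seed coat) 213 to 331 CPM. The part of other seed tissues in the results was not tested. In such pools fewer or smaller plastids and less RNA per plastid cannot be told apart.

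Of the 10 transcripts that fell in the libraries labelled atwri1-1, 5 (psbK, psbI, psbZ, rbcL and rpl33) had a match to a bacterial-type promoter pattern in the 250 bases before their start codon. The pattern was TTGNNN, a gap of 16 to 18 bases and TANNNT, the loose form of the boxes read by the plastid-encoded polymerase, and it was present on the gene's own strand in 28 of 84 such windows of the plastid genome (33.3%) and on either strand in 45 (53.6%). Among the 59 tested transcripts that did not pass, 19 had a match (32.2%). Matches are printed for members with contrasting values, with the pattern's boxes in capitals, from the RefSeq TAIR10.1 plastid sequence (Pltd). The first is Pltd:54745-54774 on the plus strand, the second Pltd:6817-6845 (plus), the third Pltd:35564-35591 (plus), the fourth Pltd:72164-72193 (plus), the fifth Pltd:1530-1559 (minus) and the last Pltd:26396-26423 (minus).
rbcL: TTGCGCtatacatatgaaagaataTACAAT
psbK: TTGATCattacatagaattcaatTAAGAT
psbZ: TTGTGAagtaaaaaagaaccttTAACTT
psbB: TTGCATattggtacttatcggataTAGAAT
psbA: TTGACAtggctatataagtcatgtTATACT
rpoB: TTGCTAgatcgaattctatggaTATGAT
Of these, psbA alone had the full TTGAC box, which 5 of the 84 windows held (5.95%). The first 3 belong to transcripts that fell, and those of psbB, psbA and rpoB to transcripts that did not pass the test. A match is a description of letters, and no start of transcription was measured.

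Chloroplast transcripts took a steady share of reads in the libraries labelled atwri1-1 and an uneven one in WT. They made up 4.39%, 4.23% and 4.26% of transcript reads in the libraries labelled atwri1-1, against 3.71%, 7.68% and 7.05% in WT replicates 1, 2 and 3. WT replicate 1 thus lay below every library labelled atwri1-1, and the other WT libraries lay above all of them. The means were 4.30% ± 0.0849 and 6.15% ± 2.13 (SD, n = 3 each), and without WT replicate 1 the WT SD was 0.446. The difference of means was -1.85 percentage points (two-sided exact permutation test, p = 0.4, where the smallest p that 3 against 3 libraries can give is 0.1). Without WT replicate 1 the difference was -3.07 points, with p = 0.2, the smallest that 3 against 2 libraries can give in this exact test.

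The mRNAs of the other organelle served for comparison. Mitochondrion-encoded transcripts took 1.75%, 1.60% and 1.63% of transcript reads in the libraries labelled atwri1-1, against 0.906%, 1.52% and 1.44% in WT libraries. WT replicate 1 was low for both organelles, at 0.504 times the mean of WT replicates 2 and 3 for the chloroplast and 0.612 times for the mitochondrion. Counted per mitochondrial read, chloroplast reads numbered 2.51, 2.64 and 2.62 in the libraries labelled atwri1-1, against 4.10, 5.06 and 4.89 in WT libraries. On this measure, which was chosen after the values were seen, WT replicate 1 lay with the other WT libraries and the groups did not overlap (exact permutation p = 0.1, the smallest the design allows). The mitochondrial share had no overlap either, with every library labelled atwri1-1 above every WT library (exact permutation p = 0.1). The ratio therefore reflects differences in both shares.

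**Figure D1:**
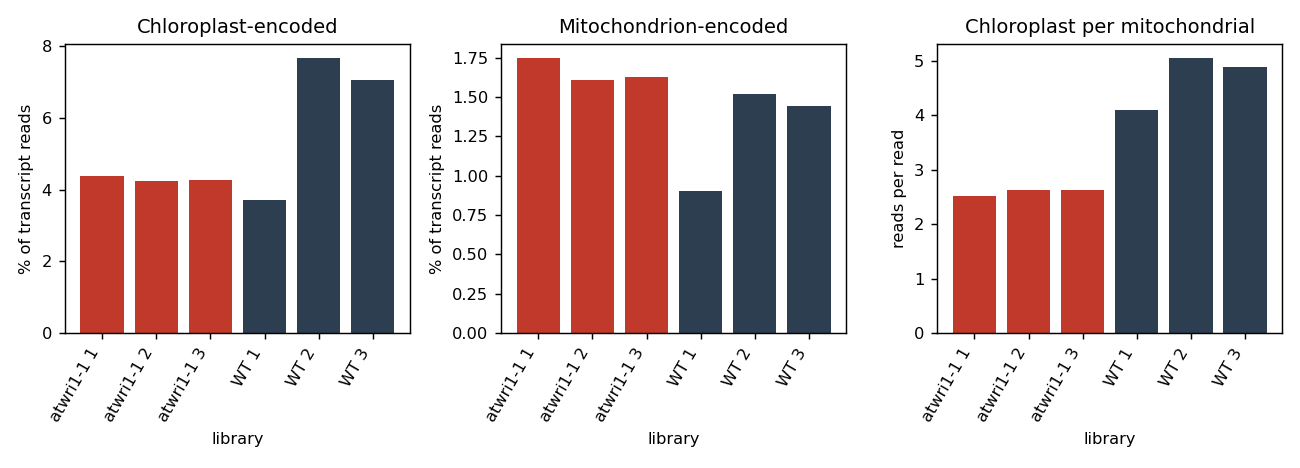
Bars give, for each of the 3 libraries labelled atwri1-1 (red) and the 3 WT libraries (dark), the percent of transcript reads on chloroplast-encoded transcripts (left), on mitochondrion-encoded transcripts (middle), and the chloroplast reads per mitochondrial read (right). WT replicate 1 is lowest in both shares at 3.71% and 0.906%, while in the right panel all 3 WT libraries, at 4.10 or more, exceed the libraries labelled atwri1-1, at 2.64 or less.

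Across single transcripts, 10 of the 69 fell in the libraries labelled atwri1-1 and 0 rose, where a call required an adjusted p of at most 0.05 and more than a 2-fold change in edgeR's quasi-likelihood test. Over all 18241 transcripts tested 5.31% were called lower and 1.08% higher. At an unadjusted p below 0.05, 34 of the 69 were lower and 0 higher, beside 15.3% and 9.86% of all tested. DESeq2 called 14 lower and 0 higher (6.54% and 1.74% of all tested) and limma-voom 10 lower and 0 higher (4.85% and 1.12%). The median log2 fold change of the 69 was -0.72, beside -0.01 over all transcripts tested, and 65 of the 69 were negative, with a range of -1.59 to 0.38. At adjusted p of at most 0.05 with no fold minimum, 16 were lower (7.51% of all tested). For 32 of the 69, all 3 libraries labelled atwri1-1 lay below all 3 WT libraries (18.9% of all tested), and 0 had the reverse order (16.1%).

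WT replicate 1 decided much of this count. Without it 24 chloroplast transcripts were called lower (5.82% of those tested) and 0 higher (1.95%), 55 were lower at any fold (12.9%), the median moved to -0.85 and 68 of the 69 were negative. The 24 shared 8 transcripts with the 10. The others were lost on the fold minimum, since rps14 and rpl20 had log2 fold changes of -0.91 in that fit. Without atwri1-1 replicate 3 the count was 4. The transcripts psbI, psbZ, psbF and rps16 were called whichever library was left out. With the replicate number as a block, 9 were called lower (5.13% of all tested).

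Groups by role were small, so counts of calls in them rest on few transcripts. Of the 14 transcripts of photosystem II, the complex that splits water, 4 were called lower (5.31% of all tested), and the median log2 fold change was -0.91. The small membrane subunit psbZ had 26.7, 31.6 and 31.2 CPM in the libraries labelled atwri1-1, against 88.1, 76.3 and 61.6 CPM in WT libraries (log2 fold change -1.34, standard error 0.168, adjusted p = 0.00361). For psbF, one of the pair of cytochrome b559 subunits, the values were 80.7, 88.3 and 88.1 CPM in the libraries labelled atwri1-1, against 211, 189 and 165 CPM in WT libraries (-1.14, SE 0.138, adjusted p = 0.00312). In both transcripts the groups were well apart and WT replicate 1 was the highest library of all. The neighbours psbK and psbI encode further small subunits. psbK had 51.8, 54.1 and 44.8 CPM in the libraries labelled atwri1-1, against 92.4, 139 and 111 CPM in WT libraries (-1.18, adjusted p = 0.00754), and psbI had 14.5, 19.4 and 16.1 CPM against 33.1, 47.7 and 43.1 CPM (-1.30, adjusted p = 0.00680). Here WT replicate 1 was the lowest WT library but still above the libraries labelled atwri1-1. Without atwri1-1 replicate 3 the adjusted p of psbK was 0.0528.

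Other photosystem II transcripts gave smaller or more scattered differences. psbC, the CP43 antenna protein, and psbE, the other cytochrome b559 subunit, had log2 fold changes of -0.91 each with adjusted p of 0.00711 and 0.00889, short of the fold minimum. psbC had 2058, 1955 and 2070 CPM in the libraries labelled atwri1-1, against 3746, 3967 and 3750.5 CPM in WT libraries, an even difference in which WT replicate 1 did not stand apart. psbB, the CP47 antenna protein, had 2680, 2602 and 2673 CPM in the libraries labelled atwri1-1, against 3133, 5839 and 5515 CPM in WT libraries (-0.86, adjusted p = 0.0726). psbA, which encodes the D1 protein that is replaced during light damage, had 2250, 1864 and 1964 CPM, against 1491, 2866 and 2862 CPM, so its groups overlapped (-0.25, adjusted p = 0.603). For both, WT replicate 1 was much the lowest WT library. Without it psbB was called (-1.10, adjusted p = 0.000120), and psbA passed at -0.50 (adjusted p = 0.0120) without reaching the fold minimum.

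rbcL, the large subunit of the carbon-fixing enzyme Rubisco, was the most abundant transcript among those that fell. It had 2996, 2601 and 2658 CPM in the libraries labelled atwri1-1, against 5411, 6055 and 5679 CPM in WT libraries. The groups did not overlap and WT replicate 1 lay close to the other WT libraries (log2 fold change -1.05, SE 0.149, adjusted p = 0.00605). The call was lost without atwri1-1 replicate 2 (adjusted p = 0.0504) or atwri1-1 replicate 3 (0.0507) and was kept without atwri1-1 replicate 1 (0.0257).

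Photosystem I, which drives electrons to ferredoxin, and its assembly factors had 1 call among 7 transcripts (5.31% of all tested) and a median log2 fold change of -0.80. The call was psaJ, a small and weakly expressed subunit with 2.65, 3.70 and 3.27 CPM in the libraries labelled atwri1-1, against 8.64, 9.55 and 7.76 CPM in WT libraries (-1.42, adjusted p = 0.0106, and 0.0592 without atwri1-1 replicate 3). The reaction centre protein psaB was the most abundant chloroplast transcript in all 6 libraries, with 7385, 7665 and 7903 CPM in the libraries labelled atwri1-1, against 6947, 16943 and 16152 CPM in WT libraries. WT replicate 1 lay below every library labelled atwri1-1, so psaB was not called (-0.80, adjusted p = 0.183), whereas without that library it was (-1.12, SE 0.0857, adjusted p = 0.000148). psaC, which holds iron-sulfur clusters, was unlike psaB in that WT replicate 1 was the highest library: it had 294, 263 and 274 CPM against 615, 517 and 490 CPM (-0.97, adjusted p = 0.00693, short of the fold minimum). ycf3, an assembly factor, had 314, 313 and 333 CPM against 423, 440 and 402 CPM in WT libraries (-0.40, adjusted p = 0.0850).

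**Figure D2:**
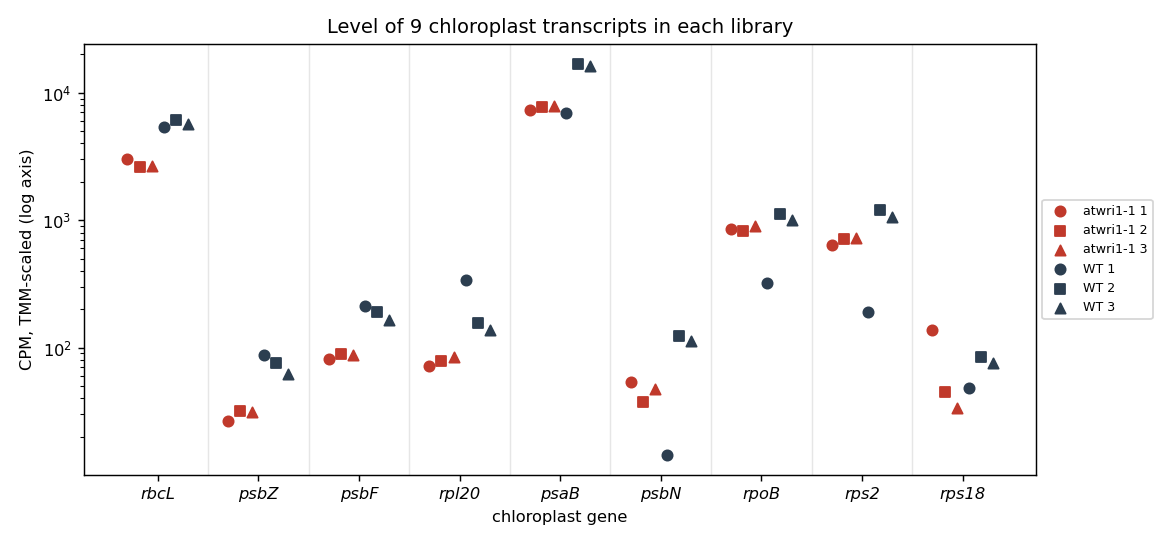
Each point is the TMM-scaled CPM of one chloroplast transcript in one library on a log axis, with the 3 libraries labelled atwri1-1 in red left of the 3 WT libraries in dark (circle, square and triangle for replicates 1, 2 and 3). For rbcL, psbZ, psbF and rpl20 all red points lie below all dark points, for psaB, psbN, rpoB and rps2 the WT circle lies below the red points, and for rps18 the red circle, at 139 CPM, is the highest point.

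None of the remaining photosynthetic complexes had a call. The cytochrome b6f complex and its assembly gene ccsA had a median log2 fold change of -0.83 over 7 transcripts, the ATP synthase -0.55 over 5, and the NDH complex, which cycles electrons around photosystem I, -0.39 over 10. When WT replicate 1 was removed, 3 of the b6f group, 1 of the ATP synthase and 3 of the NDH transcripts were called lower (5.82% of all tested). petB, cytochrome b6, had 1187, 1030 and 1096 CPM in the libraries labelled atwri1-1, against 978, 2247 and 2108 CPM in WT libraries (-0.69, adjusted p = 0.212). ccsA, which attaches haem to c-type cytochromes, had 29.3, 40.6 and 33.9 CPM against 42.1, 86.0 and 77.1 CPM (-0.98, adjusted p = 0.0694), and it was called without WT replicate 1 (-1.23, adjusted p = 0.000915). WT replicate 1 was also the lowest library for the ATP synthase subunits atpA and atpF. atpA had 2781, 3156 and 3472 CPM, against 2143, 5184 and 5282 CPM, and atpF 158, 184 and 177 CPM, against 124, 342 and 351 CPM. In the NDH complex, ndhD had 213, 205 and 194 CPM, against 115, 477 and 426 CPM (-0.73, adjusted p = 0.371). ndhJ was ordered the other way, with 37.7, 45.1 and 40.6 CPM, against 137, 64.2 and 58.7 CPM (-1.07, adjusted p = 0.0853), so that WT replicate 1 was the highest.

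Genes of the plastid's own gene expression split by complex. The RNA polymerase core had no call among 4 transcripts and a median log2 fold change of -0.09. rpoB had 851, 818 and 897 CPM in the libraries labelled atwri1-1, against 321, 1127 and 1008 CPM in WT libraries (0.06, adjusted p = 0.941), and rpoC1 had 940, 859 and 877 CPM against 328, 1222 and 1080 CPM (0.02, adjusted p = 0.980). The libraries labelled atwri1-1 lay between WT replicate 1 and the other WT libraries, and without WT replicate 1 both were lower at -0.32 (adjusted p = 0.0368) and -0.37 (adjusted p = 0.0245), inside the fold minimum. rpoA, transcribed at the end of a ribosomal protein cluster, had 661, 607 and 690 CPM against 526, 1083 and 911 CPM.

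Ribosomal proteins contributed 4 of the 10 calls, with 2 of 11 small-subunit transcripts (median -0.44) and 2 of 6 large-subunit transcripts (median -0.90), beside 5.31% of all tested. rps16 had 25.0, 32.1 and 30.1 CPM in the libraries labelled atwri1-1, against 72.3, 76.1 and 58.3 CPM in WT libraries (log2 fold change -1.24, adjusted p = 0.00421). rps14, which lies next to psaB, had 35.1, 27.1 and 24.7 CPM against 75.7, 55.5 and 53.2 CPM (-1.08, adjusted p = 0.0164, and 0.0882 and 0.0884 without atwri1-1 replicate 2 or 3). The strongest decrease of all members was that of rpl33, with 13.3, 23.7 and 15.7 CPM against 63.8, 50.9 and 45.5 CPM (-1.59, SE 0.248, adjusted p = 0.00841, and 0.0555 without atwri1-1 replicate 3). In all 3 the groups were apart and WT replicate 1 lay among or above the other WT libraries. rpl20 was the least stable call, with 71.7, 78.6 and 85.0 CPM in the libraries labelled atwri1-1 against 337, 155 and 138 CPM in WT libraries (-1.42, SE 0.338, adjusted p = 0.0401). It was lost with the replicate number as a block (adjusted p = 0.0613) and without any one library labelled atwri1-1 (0.139 to 0.159). By contrast rps2 had 642, 705 and 722 CPM against 192, 1194 and 1059 CPM (-0.24, adjusted p = 0.828), and rpl14 and rpl16 had log2 fold changes of -0.15 and -0.45 (adjusted p = 0.840 and 0.105).

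The 4 other proteins had a median log2 fold change of -0.72 and 0 calls. matK, a maturase that helps to splice group II introns, had 1299, 1630 and 1438 CPM in the libraries labelled atwri1-1, against 1204, 3341 and 2813 CPM in WT libraries (adjusted p = 0.236, and 0.000865 without WT replicate 1). The envelope protein cemA had 96.9, 108 and 97.4 CPM against 95.4, 224 and 215 CPM (adjusted p = 0.147, and 0.000119 without WT replicate 1). clpP1, a protease subunit, had 528, 418 and 451 CPM, against 840, 660 and 586 CPM (-0.58, adjusted p = 0.0937).

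Set against WT replicates 2 and 3, WT replicate 1 was not simply a library with uniformly less chloroplast mRNA. Its log2 ratio to their mean, on CPM with 0.5 added, had a median of -0.82 over the 69 transcripts, but ran from -3.0 for psbN to 1.32 for rpl32. It was more than 2-fold lower for 23 (7.19% of all transcripts tested) and more than 2-fold higher for 3 (8.70%), namely ndhJ, rpl20 and rpl32, and it was below both other WT libraries for 49 (43.4%) and above both for 13 (44.6%). With a single library on one side this is a description and no test was made. Between WT replicates 2 and 3, 0 of the 69 differed by more than 2-fold (2.59% of all tested).

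The libraries labelled atwri1-1, set against the same WT replicates 2 and 3, behaved differently from WT replicate 1 although both ratios share those libraries. Their median was -0.85, close to that of WT replicate 1, but the interquartile range was 0.49, against 1.35 for WT replicate 1, and the values ran from -1.53 to 0.15. Over all transcripts tested these ranges were 0.51 and 0.91, so the wider spread of WT replicate 1 was not confined to the chloroplast, and a mean of 3 libraries is set here against a single one. For 63 of the 69 all 3 libraries labelled atwri1-1 were below both WT replicates 2 and 3 (26.6% of all tested). The 10 transcripts called with all libraries had ratios in WT replicate 1 of -0.45 to 1.2, with a median of 0.18, and the 59 not called had a median of -0.92. Since WT replicate 1 is one of the libraries in that fit, this split follows in part from the arithmetic.

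**Figure D3:**
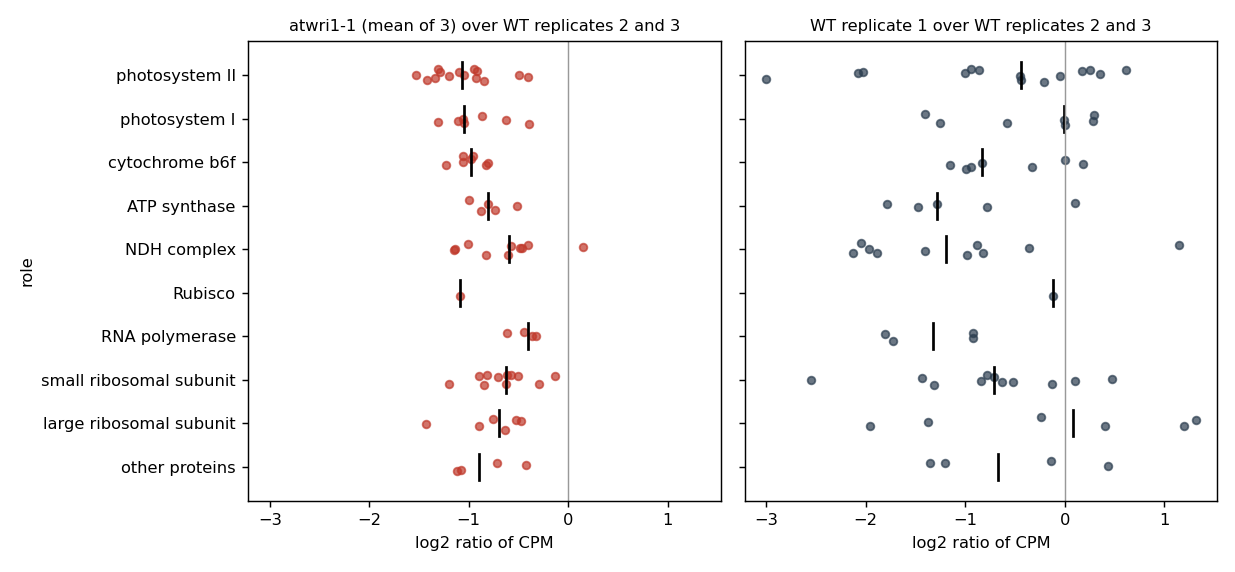
Points are single chloroplast transcripts by role, placed by their log2 ratio of CPM to the mean of WT replicates 2 and 3, for the mean of the libraries labelled atwri1-1 (left, red) and for WT replicate 1 (right, dark), with black ticks at the medians of each role. Red points lie between -1.53 and 0.15, while dark points lie between -3.0 (in photosystem II) and 1.32 (in the large ribosomal subunit).

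The pattern of WT replicate 1 changed between genes that lie side by side in one cotranscribed unit. These units were chosen after the values were seen. In the unit from psbB to petD the log2 ratio of WT replicate 1 was -0.86 for psbB, -2.07 for psbT, -3.0 for psbN, -2.03 for psbH, -1.15 for petB and -0.83 for petD. Hence the small genes in the middle were much lower than the large ones at the ends. psbH, a photosystem II phosphoprotein, had 237, 177 and 209 CPM in the libraries labelled atwri1-1, against 124, 534 and 484 CPM in WT libraries. psbN lies on the opposite strand between psbT and psbH, and since the counting did not use strand its reads cannot be told apart from those of the unit running across it. In the ndhH to ndhD unit the ratios were -2.05 for ndhG, -2.12 for ndhE and -1.97 for ndhD but 0.29 for psaC, which lies between the last 2. In the ATP synthase unit atpH, the ring subunit, was at 0.10 between atpI at -1.78 and atpF at -1.48, and rps2 at the start of the unit was at -2.55. The upstream polymerase genes rpoB, rpoC1 and rpoC2 were at -1.73, -1.81 and -0.92.

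In the libraries labelled atwri1-1 the steps at psbN, psaC and atpH were smaller. The mean log2 ratios of these libraries to WT replicates 2 and 3 lay between -1.53 and -0.98 from psbB to petD. psaC at -0.86 lay near ndhE at -1.15 and ndhD at -1.14, and atpH at -0.51 lay nearer to atpI at -0.88 and atpF at -1.0. In the ndhH to ndhD unit, however, ndhI was at 0.15 beside ndhG at -0.82, and atwri1-1 replicate 1 was high for ndhI. Neighbours differed over 2 other units as well. On the same ratio psbF and psbE were at -1.04 and -0.85, beside -0.40 for psbL. psaJ and rpl33 were at -1.30 and -1.43, beside -0.13 for rps18, and atwri1-1 replicate 1 was high for both psbL and rps18. From rpoB at -0.32 to atpF at -1.0 the ratio also stayed negative throughout.

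**Figure D4:**
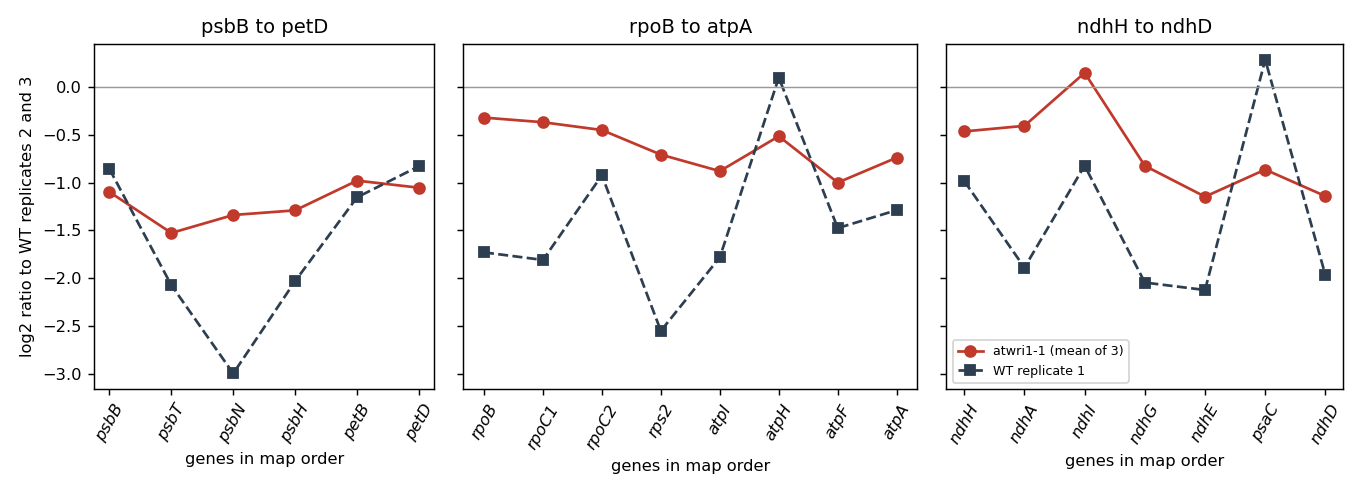
Lines join neighbouring chloroplast genes in map order and give their log2 ratio of CPM to the mean of WT replicates 2 and 3, for the mean of the 3 libraries labelled atwri1-1 (red circles) and for WT replicate 1 (dark squares). The dark lines jump between neighbours, from -1.78 at atpI to 0.10 at atpH and from -2.12 at ndhE to 0.29 at psaC. The red lines stay between -1.53 and 0.15 and step from 0.15 at ndhI to -0.82 at ndhG.

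Within the libraries labelled atwri1-1, replicate 1 differed from replicates 2 and 3 for a handful of chloroplast transcripts. It was more than 2-fold higher for 4 of the 69 (1.98% of all transcripts tested) and more than 2-fold lower for 0. rps18, a small-subunit protein, had 139 CPM in that library, against 45.0 and 33.4 CPM in atwri1-1 replicates 2 and 3, and ndhI, an NDH subunit, had 69.6 CPM against 19.5 and 20.5 CPM. psbL had 87.6 CPM against 36.4 and 30.9 CPM, and psaI 49.3 CPM against 20.0 and 19.3 CPM. This is the library with 86.6% of its table in the row naming no transcript, and the part of that row in these values was not tested. In WT libraries rps18 had 48.5, 83.6 and 75.3 CPM, ndhI 18.4, 32.7 and 33.0 CPM and psbL 33.9, 69.3 and 67.3 CPM, so the log2 fold changes of 0.06, 0.38 and -0.14 rest on atwri1-1 replicate 1, and without it all 3 were negative, at -0.82, -0.49 and -0.75.

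The make-up of the chloroplast reads set WT replicate 1 apart as well. Taking each transcript as a share of all chloroplast reads in its library, the median absolute log2 difference over the 69 was 0.0873 between atwri1-1 replicates 2 and 3 and 0.0703 between WT replicates 2 and 3, but 0.298 and 0.231 between atwri1-1 replicate 1 and atwri1-1 replicates 2 and 3. It was 0.186 to 0.364 between a library labelled atwri1-1 and WT replicate 2 or 3, a range that holds the distances of atwri1-1 replicate 1 from its own group, and 0.632 to 0.827 between WT replicate 1 and any other library, where 22 to 27 transcripts differed by more than 2-fold. The top 10 transcripts by mean share took 69.9% to 71.2% of chloroplast reads in the libraries labelled atwri1-1 and 71.2% to 75.7% in WT. The top 3 by mean share took 36.5%, 36.5% and 36.5% of chloroplast reads in the libraries labelled atwri1-1, against 37.5%, 41.6% and 41.6% in WT libraries.

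By role, RNA polymerase transcripts took 7.54%, 6.97% and 7.27% of chloroplast reads in the libraries labelled atwri1-1, against 3.72%, 5.37% and 5.04% in WT libraries. Small-subunit ribosomal proteins took 5.03%, 5.33% and 5.17%, against 3.50%, 4.33% and 4.19%. For both shares the groups did not overlap, with atwri1-1 above WT, and rbcL showed the reverse with 7.30%, 6.58% and 6.50%, against 12.8%, 7.71% and 7.76% (exact permutation p = 0.1 for each of the 3, the smallest the design allows, and 0.333 after Benjamini-Hochberg adjustment over the 10 roles, so that no such share could pass 0.05). Photosystem I took 31%, 31.6% and 31.6%, against 27.4%, 35.3% and 35.2%, and photosystem II 20.6%, 19.4% and 19.5%, against 25.2%, 19.6% and 20.0%. For photosystem I, WT replicate 1 and the other WT libraries lay on opposite sides of the libraries labelled atwri1-1, whereas for photosystem II WT replicates 2 and 3 lay within their range and WT replicate 1 above it. Shares are bound to sum to a whole, so a higher share of one role is a lower share of others.

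Per kilobase of coding sequence the order of levels ran over a wide range. The highest were psaB, with means of 3470 CPM per kb in the libraries labelled atwri1-1, against 6053 in WT, and psbE, with 3166 against 5932. rbcL, psaA, psbB, atpA, rpl16, petB, psbA and psbC followed. The lowest among those tested was petL, a b6f subunit, at 10.8 and 29.7 CPM per kb, a transcript with as few as 10 reads in a library. Several of the lowest transcripts, such as petL, petG, psbM and psaJ, have very short coding sequences, and reads crossing the ends of a counted model were not placed on it. Spearman's rho between coding length and log2 ratio to WT replicates 2 and 3 was taken over the 68 transcripts with a length. It was 0.27 for the libraries labelled atwri1-1 and -0.36 for WT replicate 1. Between coding length and the log2 fold change with all libraries, rho was 0.47. These values are a description over genes that share libraries and are not independent. Among the 24 shortest coding sequences 7 were called, against 2 of the 27 of middle length and 1 of the 17 longest (5.31% of all tested were called lower). The median log2 ratio of WT replicate 1 was 0.002, -0.82 and -1.25 in the same order. The part of length in the calls by role was not tested. The ratio of WT replicate 1 had rho of 0.12 with GC content.

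Copies of plastid DNA elsewhere in the genome could affect a count where the copy lies in another counted transcript, since a read with more than 1 best place was dropped, and this was not tested. Over 5% of the 31-base words of the coding sequence also occurred in the nuclear or mitochondrial genome for 12 members, among them rps2 (36.4%), rbcL (24.8%), atpI (20.8%), psbA (15.7%) and petB (10.8%). For the other 9 of the 10 transcripts that fell the share was 0%. Words found more than once within the plastid genome itself made up 33.3% for rps19 and 18.8% for ycf1.2.

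No mitochondrion-encoded transcript was called in either direction among 80 tested, where 5 (6.25%) were higher and 0 lower at an unadjusted p below 0.05 in edgeR, beside 9.86% and 15.3% of all tested, and DESeq2 and limma-voom called 0. Their median log2 fold change was 0.24, and 0.03 without WT replicate 1. In WT replicate 1 the median log2 ratio of mitochondrial transcripts to WT replicates 2 and 3 was -0.63.

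Nuclear genes whose products join the plastid-encoded subunits also fell, but their order among WT libraries differed from that of the chloroplast genes. Of 12 such partners 9 were called lower and 0 higher, beside 5.31% and 1.08% of all tested (median log2 fold change -1.38). Their summed levels were 3102, 2895 and 2986 CPM in the libraries labelled atwri1-1, against 9428, 5887 and 6336 CPM in WT libraries. RBCS3B, a Rubisco small subunit, had 9.15, 7.15 and 7.1 CPM in the libraries labelled atwri1-1, against 110, 60.6 and 59.9 CPM in WT libraries, and RBCS1A, the most abundant small subunit, had 1248, 1084 and 1161 CPM against 4037, 2527 and 2725 CPM (adjusted p = 0.00746 for RBCS1A). WT replicate 1 was the highest library for both, and the median log2 ratio of the 12 partners in WT replicate 1 to WT replicates 2 and 3 was 0.73, beside -0.82 for the chloroplast transcripts. Leaving out atwri1-1 replicate 1, 2 or 3 brought the count of calls to 4, 3 and 3 (the shares over all tested in these fits are not given here). The Rubisco small subunits are near-identical copies, and reads that fit more than 1 of them were dropped.

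With all libraries, nuclear genes for plastid transcription and RNA stability gave no call at the fold minimum. The 6 sigma factors had a median log2 fold change of -0.61, the 12 proteins that associate with the plastid-encoded polymerase -0.30, and the 5 RNA stability proteins -0.23, with 0 called in each. Without WT replicate 1, at adjusted p of at most 0.05 with no fold minimum, 2, 4 and 2 of them were lower and 0 higher (12.9% of all tested were lower). The pair of nuclear-encoded plastid polymerases had a median of 0.39. RPOTp had 100, 116 and 110 CPM in the libraries labelled atwri1-1, against 49.1, 98.6 and 84.4 CPM in WT libraries (adjusted p = 0.267). RNE, the plastid RNase E that cuts precursors, had 26.2, 26.6 and 27.4 CPM against 37.3, 48.3 and 37.8 CPM and passed at adjusted p = 0.0401 without reaching the fold minimum, and with the replicate block the adjusted p was 0.0738. CP29A, an RNA-binding protein that stabilizes chloroplast mRNAs, had 322, 550 and 490 CPM against 641, 973 and 936 CPM (adjusted p = 0.0667, and 0.0187 with the replicate block), and it was called without WT replicate 1 (log2 fold change -1.08, adjusted p = 0.00828).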

How the data were processed

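Per the labels, RNA of dissected embryos (50 ng of total RNA) was amplified with the Ovation RNA-Seq System V2, which primes with oligo-dT and random primers and so also reads plastid mRNA without poly(A) tails. The authors trimmed reads, removed rRNA reads and mapped the rest with Bowtie 0.12.7 to TAIR10 transcripts, allowing 2 mismatches and 1 best place. The deposited values were raw counts per transcript; a separate normalized table was not used. The row naming no transcript was left out of library sizes (39.6% to 86.6% of each table). Counts were filtered, TMM-scaled and tested with edgeR 4.0.16 (quasi-likelihood, Benjamini-Hochberg). Alternatives used DESeq2 1.42.0 and limma-voom 3.58.1, other scalings, no filter, other thresholds, leaving out single libraries, and the replicate numbers as a block. Each test was checked on simulated data. A count of 3 reads is 0.148 to 0.338 CPM. Same-numbered libraries of the groups deviated together (r = 0.214 to 0.286, against -0.254 to 0.036 for other pairs), so the replicate numbers, taken from the titles, may pair the samples. The main fit and the exact test of group means did not use this pairing. The description of the WT library titled replicate 3 ends in a different number. Nothing states what a number shares.

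Chloroplast symbols follow TAIR nomenclature and are not given in the files; coordinates and lengths are from RefSeq TAIR10.1. Named genes were, per role, the most abundant member, those with the lowest and highest log2 fold change at a mean of at least 10 CPM, rbcL, psbA and every call; others were named after their values were seen. The members, roles and gene lists were chosen with earlier results of these data known. The sources call the replicates biological but do not describe separate plantings.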

Additional observations from a re-analysis of the deposited data

How the results depend on the processing

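Of the chloroplast transcripts, 10 were called lower. The count was 9 with the replicate block, 7 with library size alone, 14 with DESeq2 and 16 with no fold minimum, and removing single libraries moved it between 4 (without atwri1-1 replicate 3) and 24 (without WT replicate 1). The block took rpl20 from the calls and changed no other call among the 33 named genes. The median log2 fold change of the 69 stayed negative in every fit run, from -0.85 to -0.50, and library size alone shifted the median of all transcripts by 0.17. The difference of group means in chloroplast share kept its sign in every alternative run, from -3.07 to -1.08 percentage points. Within same-numbered pairs 1, 2 and 3 it was 0.681, -3.45 and -2.79 points, so pair 1 went the other way. No exact p reached 0.05, which 3 pairs cannot reach either (p = 0.5 for differences within pairs). Among the 37 genes of the nuclear lists 9 were called lower (5.31% of all tested). These calls became 5 at an adjusted p of at most 0.01 and ran from 3 to 11 when single libraries were removed. The median log2 ratio of WT replicate 1 was -0.96 with library size alone, where all transcripts shifted by -0.13.

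Some transcripts that were not called changed sign. The log2 fold change of rps2 was 0.10 with the block, 0.14 with limma-voom and -0.71 to 0.13 when single libraries were removed. That of rps18 was -0.22 with the block, -0.18 with limma-voom and -0.82 to 0.41 over single removals. psbL and rpl14 were at 0.022 and 0.00099 with library size alone, and at -0.75 to 0.12 and -0.49 to 0.17 over single removals. rpoB ran from -0.32 to 0.36, rpoC1 from -0.37 to 0.34 and ndhI from -0.49 to 0.69. The causes were not tested. Depth limits the weakest members: petL had as few as 10 reads in a library and psbM 14, so differences there were not well resolved.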
